A study of Mus musculus with 2 samples.

Results

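The genes described here encode the transcription factors and co-factors that carry Schwann cells, the glia of peripheral nerve, into and through myelination. They are Sox10, Pou3f1, Pou3f2, Egr2, Nab1, Nab2 and Zeb2, together with Egr1, Egr3 and Sox2, and were chosen by symbol. All 10 were found, each on 1 entry, among 22093 genes with usable values in both libraries, and all 10 had at least 1 FPKM (fragments mapped to a gene, scaled for its transcript length and for the size of the library) in both. RNA sequencing was done on sciatic nerve of mice at postnatal day 7, with 1 library from control and 1 from Tsc1cKO nerve, both of mixed strain. Tsc1 encodes a subunit of the TSC complex, which holds back mTORC1, a kinase complex that promotes cell growth. The labels give the genotypes only as control and Tsc1cKO, the latter read here as a conditional knockout, and do not say how many animals stand behind a library. The names of the deposited tables carry the mark Dhhcre for both libraries, with cplus for control and cc for Tsc1cKO. Read as a Cre under the Desert hedgehog promoter, which is active in Schwann cells from the precursor stage on, both groups carried Cre, and control nerve carried 1 conditional and 1 intact copy of Tsc1.

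In developing nerve, Sox10 holds the Schwann lineage at every stage. Pou3f1, helped by Pou3f2, acts in the promyelinating cell that has paired with a single axon, and together with Sox10 switches on Egr2, which activates the genes of myelin proteins and lipids. Nab1 and Nab2 bind EGR proteins and adjust what they do, and Zeb2 represses genes that hold the cell immature. Sox2, Egr1 and Egr3 are known from the opposite side, since Sox2 blocks myelination and Egr1 and Egr3 mark immature or stimulated cells.

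There were no replicates, so no difference below has a replicate check or a p-value. The words "higher" and "lower" compare 2 libraries, and say nothing certain of the genotypes. The number of reads behind each value is unknown. Whole nerve also contains fibroblasts, vessels, perineurial and immune cells, and fewer cells of a type and less RNA per cell cannot be told apart. Differences are Tsc1cKO minus control in log2(FPKM + 1), a scale that shrinks the change of weakly expressed genes. Genes that reached 1 FPKM in either library are called measured. Over these 12409 genes the median difference was 0.20. A second value, called centred, follows after Tsc1cKO was rescaled to remove a shift of 0.24, the median log2 ratio of the 7844 genes that reached 5 FPKM in control and also in Tsc1cKO. Tsc1 itself was at 3.76 FPKM in control and 2.28 FPKM in Tsc1cKO, 1.64-fold lower, a value that does not isolate deleted exons or Schwann cells.

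The sequences upstream of a pair of these genes are shown because EGR proteins bind DNA at a GC-rich site and because Egr2 belongs to the genes switched on by serum and growth factors. RefSeq promoter windows (GRCm38.p6) were found for 6 of the 10 genes. Egr1, Egr3, Pou3f1 and Sox10 had no window and were not searched. The first sequence below covers the 250 bases before the start of Nab1, at chr1:52500449-52500698 on the minus strand. Its capitals mark matches to the EGR site GCGNGGGCG on either strand, where N is any base. The second covers the 250 bases before a start of Egr2, at chr10:67537619-67537868 on the plus strand. Its capitals mark CCATATATGG, a form of the CArG element bound by serum response factor.
Nab1: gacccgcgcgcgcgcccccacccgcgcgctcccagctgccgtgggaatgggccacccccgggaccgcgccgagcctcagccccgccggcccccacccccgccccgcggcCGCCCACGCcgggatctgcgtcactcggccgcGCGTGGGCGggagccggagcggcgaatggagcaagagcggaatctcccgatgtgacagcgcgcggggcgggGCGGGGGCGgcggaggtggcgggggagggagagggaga
Egr2: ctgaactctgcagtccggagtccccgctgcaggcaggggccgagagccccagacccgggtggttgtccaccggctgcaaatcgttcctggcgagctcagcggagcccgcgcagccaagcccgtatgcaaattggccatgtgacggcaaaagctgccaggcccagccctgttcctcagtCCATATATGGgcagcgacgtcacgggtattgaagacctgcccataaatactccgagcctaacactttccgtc
The Nab1 window held 3 EGR matches that did not overlap each other, beginning 141, 109 and 38 bases before the start. At least 1 match stood in 5.55% of the 32851 windows of 300 bases in the same table, and at least 3 stood in 0.195%. The Nab1 window was also GC-rich, with 81.7% G or C against a median of 52.7%. Pou3f2 had 1 EGR match, 8 bases before its start, and the windows of Egr2, Nab2, Sox2 and Zeb2 had none. In Egr2 the CArG letters began 72 bases before this start, and an element of that kind (CC, then 6 bases of A or T, then GG) stood in 1.63% of all windows. Another form, CCTTTTTTGG, stood in the window of an earlier Egr2 start. The windows of Nab1, Nab2, Pou3f2, Sox2 and Zeb2 held no CArG element. This element was searched for after the Egr2 sequence had been read. The Sox site AACAAT, present in 10.7% of windows, was found in none of the windows of these genes. These matches describe letters only.

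In Tsc1cKO 4 of the 10 genes were higher by 2-fold or more and 2 were lower by 2-fold or more, which means a log2(FPKM + 1) difference of 1 or beyond. Among all measured genes 5.03% were at least 2-fold higher and 3.06% at least 2-fold lower. After centring the counts of factor genes were again 4 and 2. The shares were then 2.89% and 4.69% of the 12290 genes that reached 1 FPKM on that scale. Counting differences of any size, 67.0% of all measured genes were higher as deposited and 49.1% when centred, and the counts of higher genes below are to be read against these shares. The higher genes were Sox2, Egr3, Pou3f1 and Egr1, and the lower genes were Nab1 and Egr2. Sox10, Nab2, Pou3f2 and Zeb2 differed by 0.21 to 0.30, close to the median of all measured genes. The median of the 10 differences was 0.29, and 0.07 when centred. None of the 10 held the same place by level in both libraries, but a place also shifts when another gene passes it. Sox10, Nab2, Pou3f2 and Zeb2, all nearly level, moved only to the next lower place.

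**Figure D1:**
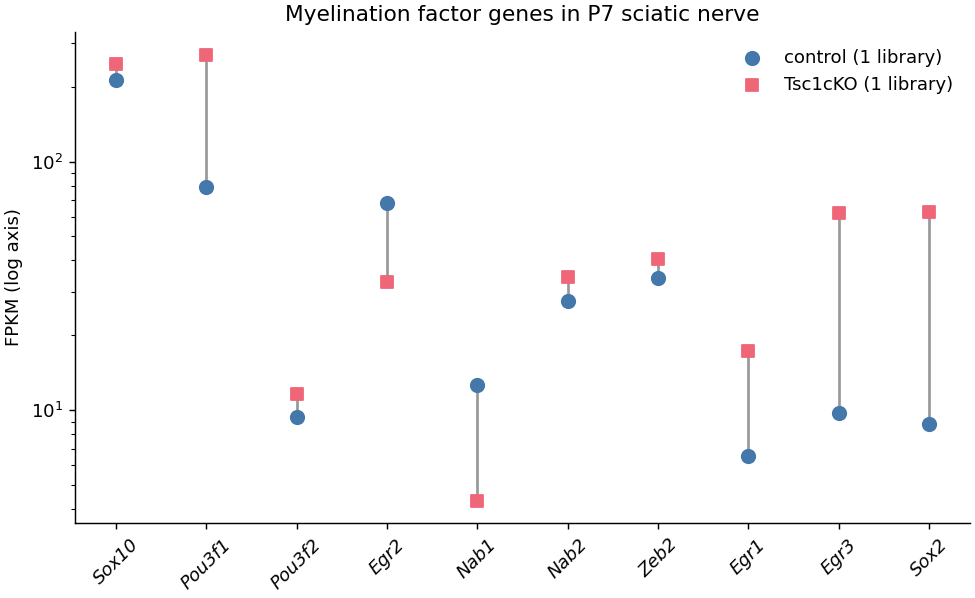
FPKM of each factor gene on a log axis, with a circle for the control library and a square for the Tsc1cKO library joined by a line. Egr2 and Nab1 lie lower in Tsc1cKO, while Pou3f1, Egr1, Egr3 and Sox2 lie well above their control values.

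Sox10, on chromosome 15 from 78985343 to 78994920 (mm9), was the most abundant of the 10 genes in control at 212 FPKM and stood at 246 FPKM in Tsc1cKO. Its HMG-box protein is required from the neural crest to the mature myelinating cell. The difference was 0.21 as deposited and −0.02 when centred, so its sign depended on the scaling. In control Sox10 ranked 282nd of all genes by FPKM and in Tsc1cKO 283rd. Other genes are set against it below, since a ratio of 2 genes inside a library is free of the scaling between libraries.

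Pou3f1, on chromosome 4 from 124334889 to 124337899, encodes the POU factor of the promyelinating stage, also known as Oct6. It was at 78.8 FPKM in control and 269 FPKM in Tsc1cKO, 3.42-fold higher, and became the most abundant of the 10 genes. The difference was 1.76 (1.52 centred), and 130 measured genes, or 1.05%, had a difference at least as large. For each unit of Sox10 there were 0.372 units of Pou3f1 in control and 1.09 in Tsc1cKO.

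Pou3f2, on chromosome 4 from 22413941 to 22415278, encodes the related factor Brn2, which can partly stand in for Pou3f1. It was at 9.38 FPKM in control and 11.6 FPKM in Tsc1cKO, a difference of 0.28 (0.07 centred). The ratio of Pou3f1 to Pou3f2 was therefore 8.40 in control and 23.2 in Tsc1cKO. The deposited entry of Pou3f2 spans 1338 bases, against a median transcript length of 5587 bases in GENCODE M21, so its FPKM covers part of that transcript. Pou3f3 and Pou3f4, the other genes of the class, were below 1 FPKM in both libraries.

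Egr2, on chromosome 10 from 67000617 to 67004936, encodes the zinc finger factor Krox20, which is required for the onset and upkeep of myelin. It was at 67.9 FPKM in control and 32.7 FPKM in Tsc1cKO, 2.07-fold lower. The difference was −1.03, just past the 2-fold rule, and −1.26 when centred. It held the third place among the 10 genes in control and the seventh in Tsc1cKO. Relative to Sox10, Egr2 stood at 0.32 in control and 0.133 in Tsc1cKO. The ratio of Pou3f1 to Egr2, which compares the promyelinating with the myelinating factor, was 1.16 in control and 8.23 in Tsc1cKO, a 7.09-fold difference.

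The relatives of Egr2 were higher where Egr2 was lower. Egr3, on chromosome 14 from 70477252 to 70479964, was at 9.78 FPKM in control and 62.3 FPKM in Tsc1cKO, 6.37-fold higher, with a difference of 2.55 (2.32 centred). Egr1, on chromosome 18 from 35020861 to 35024610, was at 6.56 FPKM in control and 17.3 FPKM in Tsc1cKO, 2.63-fold higher, with a difference of 1.27 (1.05 centred). Both encode zinc finger factors that are induced within minutes to hours of stimulation and that share a recognition site with Egr2. Egr4, the remaining gene of the family, was at 0.046 FPKM in control and listed at 0 in Tsc1cKO.

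Summed over Egr1, Egr2 and Egr3, the family stood at 84.2 FPKM in control and 112 FPKM in Tsc1cKO, a 1.33-fold difference. The makeup of the sum differed more than its size. Egr2 held 80.6% of it in control and 29.2% in Tsc1cKO, whereas Egr3 held 11.6% and 55.5% and Egr1 7.79% and 15.4%. The ratio of Egr2 to the other two combined was 4.16 in control and 0.412 in Tsc1cKO, so Egr2 was the leading EGR transcript in control and Egr3 in Tsc1cKO.

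**Figure D2:**
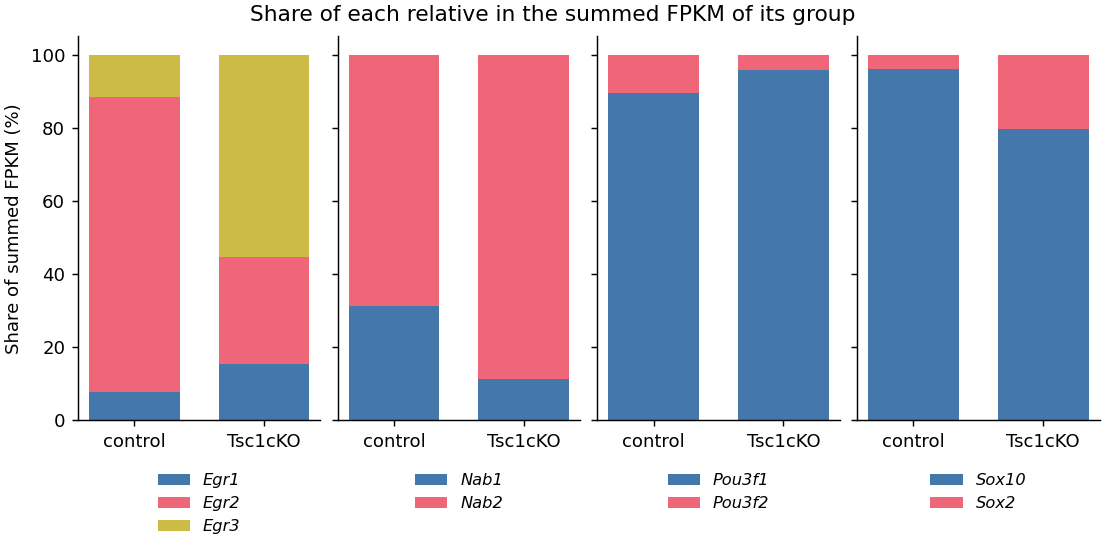
Stacked bars of the share, in percent, that each related gene takes of the summed FPKM of its group in the control and the Tsc1cKO library. The Egr2 band shrinks from 80.6% to 29.2% and the Nab1 band from 31.3% to 11.2%, while the Sox2 band widens from 3.97% to 20.2%.

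The co-factor genes parted as well. Nab1, on chromosome 1 from 52512693 to 52557292, was at 12.6 FPKM in control and 4.33 FPKM in Tsc1cKO, 2.91-fold lower, and took the lowest place of the 10 genes. The difference was −1.35 (−1.54 centred), and 1.66% of measured genes had a difference at least as negative. Nab2, on chromosome 10 from 127097974 to 127103759, was at 27.6 FPKM in control and 34.2 FPKM in Tsc1cKO, a difference of 0.30 (0.07 centred). The 2 proteins bind the same repression domain of EGR factors, and mice without both form too little myelin. The Nab sum was nearly level at 40.2 and 38.6 FPKM, and Nab2 made up 68.7% of it in control and 88.8% in Tsc1cKO. The 3 EGR genes together exceeded the 2 Nab genes 2.10-fold in control and 2.91-fold in Tsc1cKO. The Nab2 value is uncertain, because its span overlaps that of Stat6 (28.7 FPKM in both libraries) and no use of strand is stated.

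Zeb2, on chromosome 2 from 44839154 to 44968799, encodes a zinc finger repressor without which Schwann cells do not myelinate. It was at 33.9 FPKM in control and 40.4 FPKM in Tsc1cKO, a difference of 0.25 (0.02 centred). Its ratio to Sox10 was 0.16 in control and 0.164 in Tsc1cKO, the closest pair of ratios among the 13 computed. An overlapping predicted gene, Gm13476, was at 7.56 and 10.04 FPKM, so the Zeb2 value is uncertain.

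Sox2, on chromosome 3 from 34548927 to 34551382, encodes the HMG-box factor of the immature Schwann cell. It had the largest difference of the 10 genes, at 8.76 FPKM in control and 62.5 FPKM in Tsc1cKO, 7.14-fold higher. The difference was 2.70 (2.47 centred), and 39 of the 12409 measured genes had one at least as large. Sox10 exceeded Sox2 24.2-fold in control and 3.94-fold in Tsc1cKO, and the ratio of Egr2 to Sox2 was 7.75 in control and 0.524 in Tsc1cKO. The long noncoding gene Sox2ot, whose span overlaps that of Sox2, was at 13.5 and 20.3 FPKM, so reads of the 2 genes cannot be told apart with certainty.

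**Figure D3:**
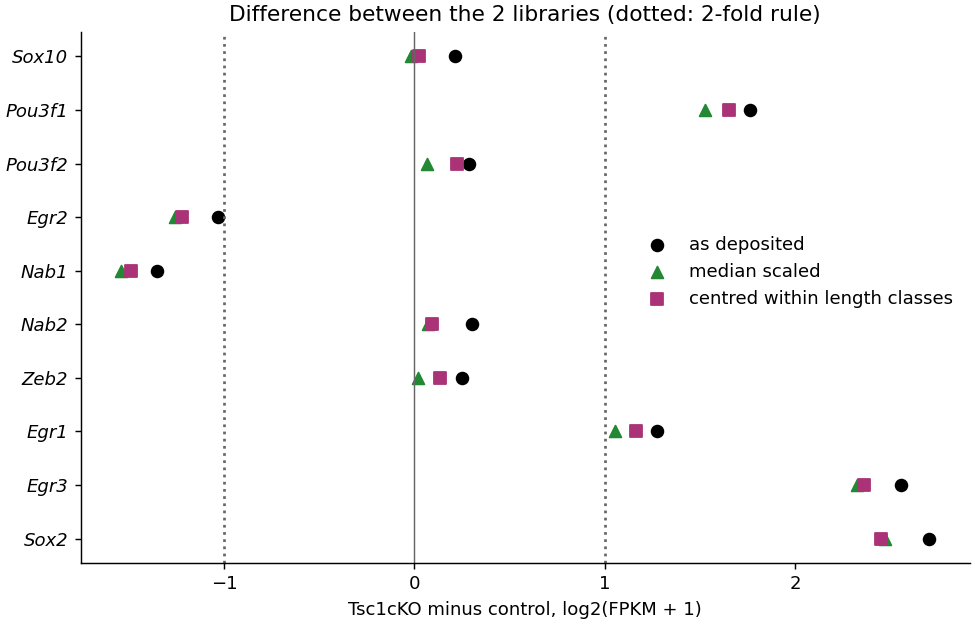
Difference of each factor gene, Tsc1cKO minus control in log2(FPKM + 1), as deposited, after median scaling and after centring within classes of transcript length. Egr3 and Sox2 lie beyond 2 under each treatment, Egr2 and Nab1 lie below −1, and Sox10, Pou3f2, Nab2 and Zeb2 lie near 0.

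Shorter transcripts tended to be higher in Tsc1cKO, with a median difference of 0.47 in the shortest of 10 length classes and −0.02 in the longest. By GENCODE M21 length, the factor genes lay in the fourth to the ninth class, whose medians ran from 0.25 to 0.06. Pou3f2 was placed in class 9 by a length of 5587 bases. Its deposited entry of 1338 bases would fall within the range of class 2, whose median was 0.35. Centred within their own class, Sox2 differed by 2.45, Egr3 by 2.36, Pou3f1 by 1.65, Egr1 by 1.16, Egr2 by −1.22 and Nab1 by −1.49. Sox10 differed by 0.02 on that scale.

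Genes listed as targets of Egr2, of Sox10 or of both were mostly lower. The list does not separate the 2 factors, so a comparison with Egr2 alone need not apply to every gene. Of 19 measured targets, 16 were lower and 12 of these passed 2-fold (14 when centred), with a median difference of −1.36 (−1.59 centred) beside 0.20 over all measured genes. Pmp22 and Mbp, which encode proteins of compact myelin, were at 15306 and 14783 FPKM in control and at 2287 and 2564 FPKM in Tsc1cKO. Drp2, part of the dystroglycan complex at the Schwann cell surface, was at 137 and 9.61 FPKM. Mal, encoding a proteolipid of myelin, was at 1045 and 230 FPKM. These 4 were named for large differences or high FPKM, and the difference of Egr2 itself (−1.03) was smaller than each of theirs. The 12 targets past 2-fold were all lower by more than Egr2. The 2-fold cut lies so close to the Egr2 value that this was nearly fixed by their selection. Cnp (−0.80), Ndrg1 (−0.85), Dhh (−0.33) and Mitf (−0.32), named after their values were seen, were lower by less. The 3 higher targets included Ednrb at 62.2 and 193 FPKM and Erbb3 at 63.2 and 91.2 FPKM, both named after their values were seen.

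Of 6 genes listed as repressed by Zeb2, 4 were measured and all 4 were higher, 2 of them at least 2-fold. The median was 1.24, and 0.66 over all 6 genes with no filter. Besides Sox2 the higher genes were Ednrb, the endothelin receptor gene that also stands among the targets above, Cdh1 (50.3 and 92.3 FPKM), which encodes E-cadherin, and Hey1 (6.93 and 9.92 FPKM), a Notch effector. Hey2, another Notch effector, was below 1 FPKM in both libraries. Sox2, itself among the 10 factor genes, and Ednrb were the 2 past 2-fold. Apart from Sox2 (2.70), the differences were 1.62 for Ednrb, 0.86 for Cdh1 and 0.46 for Hey1. Zeb2 itself was nearly level where the 4 measured genes of this list were higher.

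Among genes listed as negative regulators of myelination other than Sox2, 7 of 13 measured were at least 2-fold higher (6 when centred). None was lower by that much. The lists share genes, since Ednrb and Hey1 were already counted above and Jun is counted again among the immediate early genes. Altogether, 10 of the 13 were higher as deposited, a share not far from the 67.0% of all measured genes. When centred, 9 of the 13 were higher, a share above the 49.1% of all measured genes on that scale. Their median was 1.16 (0.94 centred), 0.75 with a pseudocount of 5 and 0.49 with no filter on low values. Id2, encoding an inhibitor of differentiation, was at 55.8 and 209 FPKM. Ngfr, encoding the low-affinity neurotrophin receptor p75 and known to respond to Egr1 and Egr3, was at 69.5 and 220 FPKM. Ngfr counts among the 7 past 2-fold, and its role as a negative regulator was assumed, not tested. Jun, which drives dedifferentiation after injury, was at 25.8 and 69.9 FPKM, and Sox5 at 1.69 and 6.25 FPKM. The lower members were Id3 (51.6 and 45.5 FPKM), Id1 (18.1 and 16.1 FPKM) and Sox6 (1.68 and 1.54 FPKM), named after their values were seen. Pax3 was listed at 0 in both libraries.

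Among close relatives of the 10 genes, the few that were measured did not share the large differences. Egr4, Wt1, Sox1, Sox21, Pou3f3 and Pou3f4 were below 1 FPKM in both libraries and could not be compared. Of 11 listed, 5 were measured, 4 of them lower, with a median of −0.24 (−0.39 centred) and none past 2-fold. Sox9 was at 6.81 and 3.97 FPKM and Sox8, which overlaps in function with Sox10, at 12.5 and 8.07 FPKM. Zeb1, the relative of Zeb2, was the 1 higher gene at 16.5 and 30.7 FPKM. Sox3 was at 2.49 and 2.06 FPKM and Pou2f1 at 2.57 and 2.02 FPKM. Sox1, which belongs with Sox2 to the SoxB1 group, was listed at 0 in control and at 0.13 FPKM in Tsc1cKO.

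Other factors of the Schwann cell programme went both ways, with 13 of 21 measured genes higher (10 when centred), below the share of all measured genes. Of these 3 passed 2-fold, and 1 gene was lower by at least 2-fold (2 when centred). The median of 0.10 turned to −0.11 when centred. Runx2 (0.483 and 4.98 FPKM) and Olig1 (0.785 and 8.26 FPKM) were measured only through Tsc1cKO. Foxd3, a factor of the neural crest and early glia, was at 53.9 and 144 FPKM. The lower gene past 2-fold was Nr4a2, at 16.7 and 7.40 FPKM. Tead4, a DNA-binding partner of YAP and TAZ, passed only when centred, at 4.99 and 2.25 FPKM. Srebf2, which controls cholesterol synthesis genes, was at 84.3 and 59.2 FPKM.

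Genes of the signals known to feed Pou3f1 and Egr2 were mostly near level. Of 14 measured genes 8 were higher (5 when centred), a share below the 67.0% of all measured genes, none of them by 2-fold, and the median of 0.10 turned to −0.13 when centred. Gpr126, whose receptor raises cyclic AMP to start Pou3f1 and Egr2, was at 14.5 and 18.7 FPKM (named outside the rule for its role). Erbb3, the neuregulin co-receptor, was given above, and the calcineurin subunit gene Ppp3ca was at 26.5 and 41.7 FPKM. Creb1, encoding a factor activated by cyclic AMP, was at 4.49 and 7.01 FPKM. Adcy1, encoding an adenylyl cyclase, was the 1 gene past 2-fold as deposited, at 24.7 and 2.13 FPKM. Lamc1, encoding a laminin chain of the basal lamina, passed as well when centred (−1.16), at 323 and 169 FPKM. Dag1, the dystroglycan gene, was at 347 and 328 FPKM.

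Partners through which Zeb2 and Nab proteins act on chromatin were higher in 13 of 13 cases as deposited and 10 of 13 when centred, none past 2-fold, beside 67.0% and 49.1% of all measured genes. The median was 0.45 (0.22 centred). The deacetylase genes Hdac1 and Hdac2 were at 30.9 and 55.6 FPKM and at 39.7 and 60.7 FPKM. The NuRD remodeller genes Chd3 and Chd4 were at 23.5 and 39.9 FPKM and at 50.9 and 76.1 FPKM. Mbd3, another NuRD subunit gene, was at 74.6 and 111 FPKM, and the corepressor gene Ctbp1 at 83.8 and 102 FPKM.

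**Figure D4:**
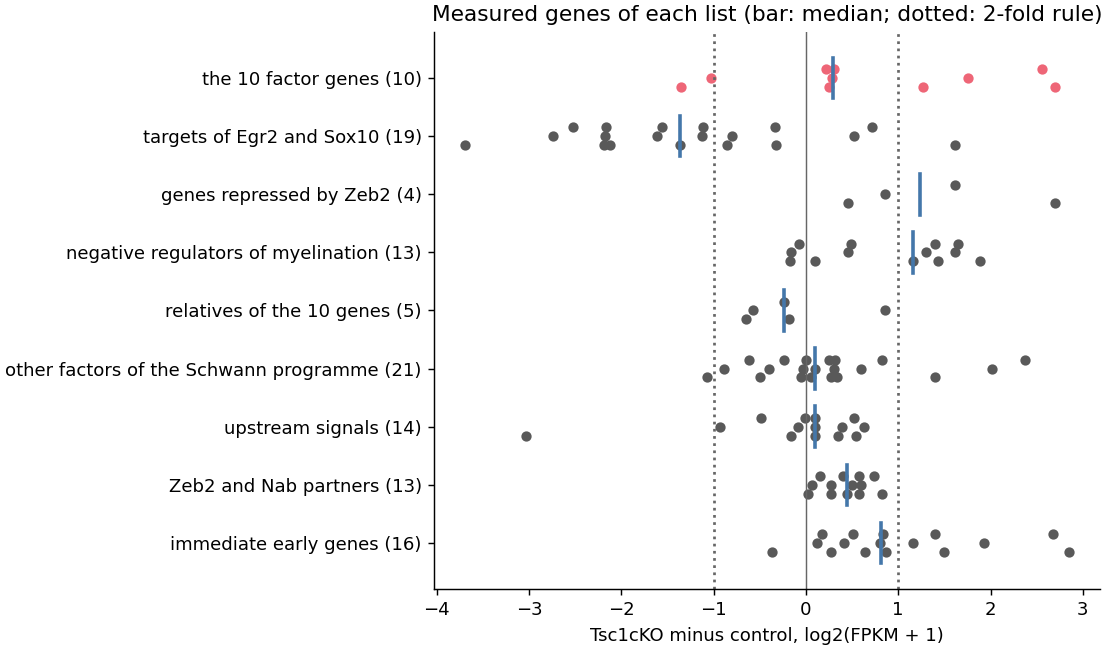
Differences, Tsc1cKO minus control in log2(FPKM + 1), of the measured genes of each list, with a bar at the list median and the number of genes in brackets. The targets of Egr2 and Sox10 centre at −1.36 and the negative regulators at 1.16, with the 10 factor genes spread on both sides of 0.

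Egr1 and Egr3 belong to the immediate early genes, a class that handling of the tissue can also induce. Of 16 other measured immediate early genes 15 were higher (13 when centred), and 6 of these passed 2-fold (5 when centred). Fosb, counted among the 6, at 0.709 and 2.83 FPKM, was measured only through Tsc1cKO. Their median was 0.82 (0.60 centred, and 0.50 with a pseudocount of 5). Fos stood at 7.86 FPKM in control and 63.1 FPKM in Tsc1cKO. Junb stood at 5.80 and 24.9 FPKM, Atf3 at 5.04 and 37.6 FPKM, and for Ier2 the values were 10.4 and 31.2 FPKM. Jund was at 63.2 and 84.2 FPKM and Nr4a1 at 45.1 and 82.9 FPKM, while Cyr61 was lower at 18.6 and 14.2 FPKM. Srf, which encodes serum response factor, was at 9.85 and 12.1 FPKM (both named after their values were seen). The part of a general immediate early response in the values of Egr1 and Egr3 was not tested.

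Markers of the cells in the nerve were set beside these values. Schwann cell markers were higher in 5 of 7 measured cases with either scaling. That was near the share of all measured genes as deposited and above their 49.1% when centred. S100b was level at 169 and 167 FPKM, with Cdh19 at 23.3 and 55.9 FPKM and Gap43 at 5.76 and 41.8 FPKM. The summed level of the list was 883 and 1422 FPKM. Fibroblast markers were lower in 5 of 6 cases (6 when centred), with sums of 7132 and 4829 FPKM, and perineurial (161 and 126 FPKM) and endothelial (84.04 and 63.4 FPKM) markers were lower in all 5 and all 6. Macrophage markers were level in sum, at 155 and 156 FPKM, with 4 of 7 higher (2 when centred), and pericyte and smooth muscle markers stood at 127 and 119 FPKM with 3 of 6 higher (2 when centred). Skeletal muscle markers, which a dissected nerve can carry along, were higher in 6 of 6 cases with either scaling, with sums of 286 and 590 FPKM. Mast cell markers were higher in 5 of 5 cases with either scaling (32.1 and 57.98 FPKM). Adipocyte markers were higher in 4 of 4 cases as deposited and 2 of 4 when centred (227 and 302 FPKM), and none of the 6 lymphocyte markers reached 1 FPKM. Of 6 melanocyte markers 4 were measured and 3 of these were higher, with sums of 15.8 and 1165 FPKM. Mlana was at 0 in both libraries and Tyr below 1 FPKM, while Tyrp1 was at 0.361 and 802 FPKM and Pmel at 8.95 and 354 FPKM. Tyrp1 and Dct (0.818 and 4.98 FPKM) were measured only through Tsc1cKO, so they could only be counted as higher. Mitf was lower at 5.72 and 4.38 FPKM. Of 6 neuron markers 2 were measured, with sums of 6.43 and 26.99 FPKM, namely Nefl at 2.45 and 1.79 FPKM and Tubb3 at 3.99 and 25.2 FPKM. The part of these shifts in the values of the factor genes was not tested.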

How the data were processed

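Sciatic nerve RNA was extracted with Trizol and libraries were made with a TruSeq RNA kit, per the labels' protocols. The authors deposited a table of FPKM for each library, per the file headers. The submitters' processing notes list CASAVA, TopHat and Cufflinks with the build mm9. Versions, roles and options of these tools are unknown here. Sequencing depth is unknown.

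FPKM of entries sharing a symbol were summed (22532 entries, 22096 symbols), and 3 genes with a failed status were left out. Entry starts count from 0 and were raised by 1. Differences used a pseudocount of 1, a filter of 1 FPKM and a 2-fold rule in Python 3.11.15 with pandas 2.3.3, checked on simulated data. With 1 library per group no test was possible. Alternatives changed the pseudocount, scaling, filter, fold rule and repeated symbols. Centring within length classes was chosen after seeing the data, with GENCODE M21 lengths for 88.9% of measured genes. Promoter windows of 300 bases are RefSeq's. No protein sequence was used here.

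The named genes were the 10 factor genes, Tsc1 and, per list, up to 5 measured genes with the largest difference and the 2 with the highest mean FPKM. A few of these are not reported here. The genes and lists were compiled from general knowledge with earlier results of these data known.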

Additional observations from a re-analysis of the deposited data

How the results depend on the processing

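With 1 library per group, leaving out a library was not possible, and no setting measures biological spread. No paired analysis was possible because each group holds 1 library. The median difference of the 10 factor genes was 0.29 as reported. It was 0.31 with a pseudocount of 0.1 and 0.25 with 5, and 0.0698, 0.13 and 0.11 after median, upper quartile and trimmed mean scaling, which divided Tsc1cKO by 1.18, 1.13 and 1.14. It was 0.18 when centred within length classes. The count of genes at least 2-fold higher was 3 in place of 4 with a pseudocount of 5 and with a 3-fold rule. The count at least 2-fold lower was 0 in place of 2 under the same settings. Egr2 ranged from −1.26 to −0.95 over the 12 settings and Nab1 from −1.54 to −0.92, so both lose the 2-fold mark with a pseudocount of 5. Egr1 ranged from 0.95 to 1.38, Pou3f1 from 1.52 to 1.77, Egr3 from 2.19 to 2.66 and Sox2 from 2.29 to 2.82. Sox10 turned negative under median scaling, at −0.02.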
